A study of Homo sapiens with 2 samples.

Results

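The genes that hold a germinal centre B cell in place, or let it leave, were examined for binding of the histone methyltransferase KMT2D (also called MLL4). Their members were peaks of a KMT2D ChIP-seq list whose highest point lay in 1 of 9 windows on build hg19, named for GNA13, S1PR2, ARHGEF1, CXCR5, CXCR4, S1PR1, CCR7, GPR183 and RGS13. The windows are defined by position, though the genes were chosen with earlier results of these data known, and they held 57 of the 24772 peaks listed on chromosomes 1 to 22 and X (24824 on every chromosome listed). The study consisted of 1 KMT2D ChIP library and 1 input library made without antibody, both from formaldehyde-fixed OCI-LY7 cells, an established tumour line of GCB-DLBCL, the germinal centre type of diffuse large B-cell lymphoma, with genotype wild type per the labels. With 1 ChIP library of 1 cell line there was no replicate spread and no test between conditions, and the sequencing depth is unknown. Peak heights are whole numbers in the authors' own units.

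Germinal centre B cells are kept in the follicle by a signal that limits their migration. The sphingosine-1-phosphate receptor S1PR2 acts through the G protein subunit Gα13, the product of GNA13, and the exchange factor ARHGEF1, which activates the GTPase RHOA; genes of this route are known targets of inactivating mutation in germinal centre lymphomas. CXCR5 draws B cells into follicles toward CXCL13 and CXCR4 holds them in the dark zone toward CXCL12, whereas S1PR1, CCR7 and GPR183 guide cells to the circulation, to the T zone and to the outer follicle. RGS13 shortens signalling by G protein-coupled receptors and is known as abundant in germinal centre B cells. KMT2D methylates histone H3 at lysine 4 and acts above all at enhancers.

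KMT2D peaks were more numerous in the windows of the Gα13 route and of CXCR5 and CXCR4 than at the density of their chromosomes. Few or none were listed in the windows of S1PR1, CCR7, GPR183 and RGS13. The windows of the route were not alike: 12.3% of chromosome 17 stretches of equal length were at least as full as that of GNA13. The ARHGEF1 count fell from 8 to 1 when its window was narrowed by 20 kb on both sides. That window is the shortest, at 74 kb, so this cut took a larger share of it than of the others. The 3 windows of the Gα13 route held 28 peaks over 324 kb, or 86.4 peaks per Mb (exact Poisson 95% interval 57.4 to 124.9). The 2 windows of CXCR5 and CXCR4 held 26 peaks over 260 kb, or 100 peaks per Mb (65.3 to 146.5). The 3 windows of S1PR1, CCR7 and GPR183 held 2 peaks over 330 kb, or 6.06 peaks per Mb (0.734 to 21.9), and the RGS13 window held 1 peak over 120 kb. At the mean densities of their own chromosomes, 7.44, 2.098, 3.604 and 1.19 peaks would fall into windows of these lengths, in the same order. The 28 and 26 peaks thus lay above these numbers by more than Poisson counting error, and the 2 peaks and the 1 peak did not differ from theirs beyond it. These intervals reflect the counting of peaks alone and take each peak as independent of the others. The peaks were clumped, with 63.4% of the list in clusters of 2 or more peaks joined across short gaps. The intervals are therefore likely too narrow. That of GNA13 started at 20.1 per Mb, above the 18.1 of chromosome 17, although 12.3% of equal stretches were at least as full. Peaks are no replicates, and the variation between libraries was not measured.

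**Figure D1:**
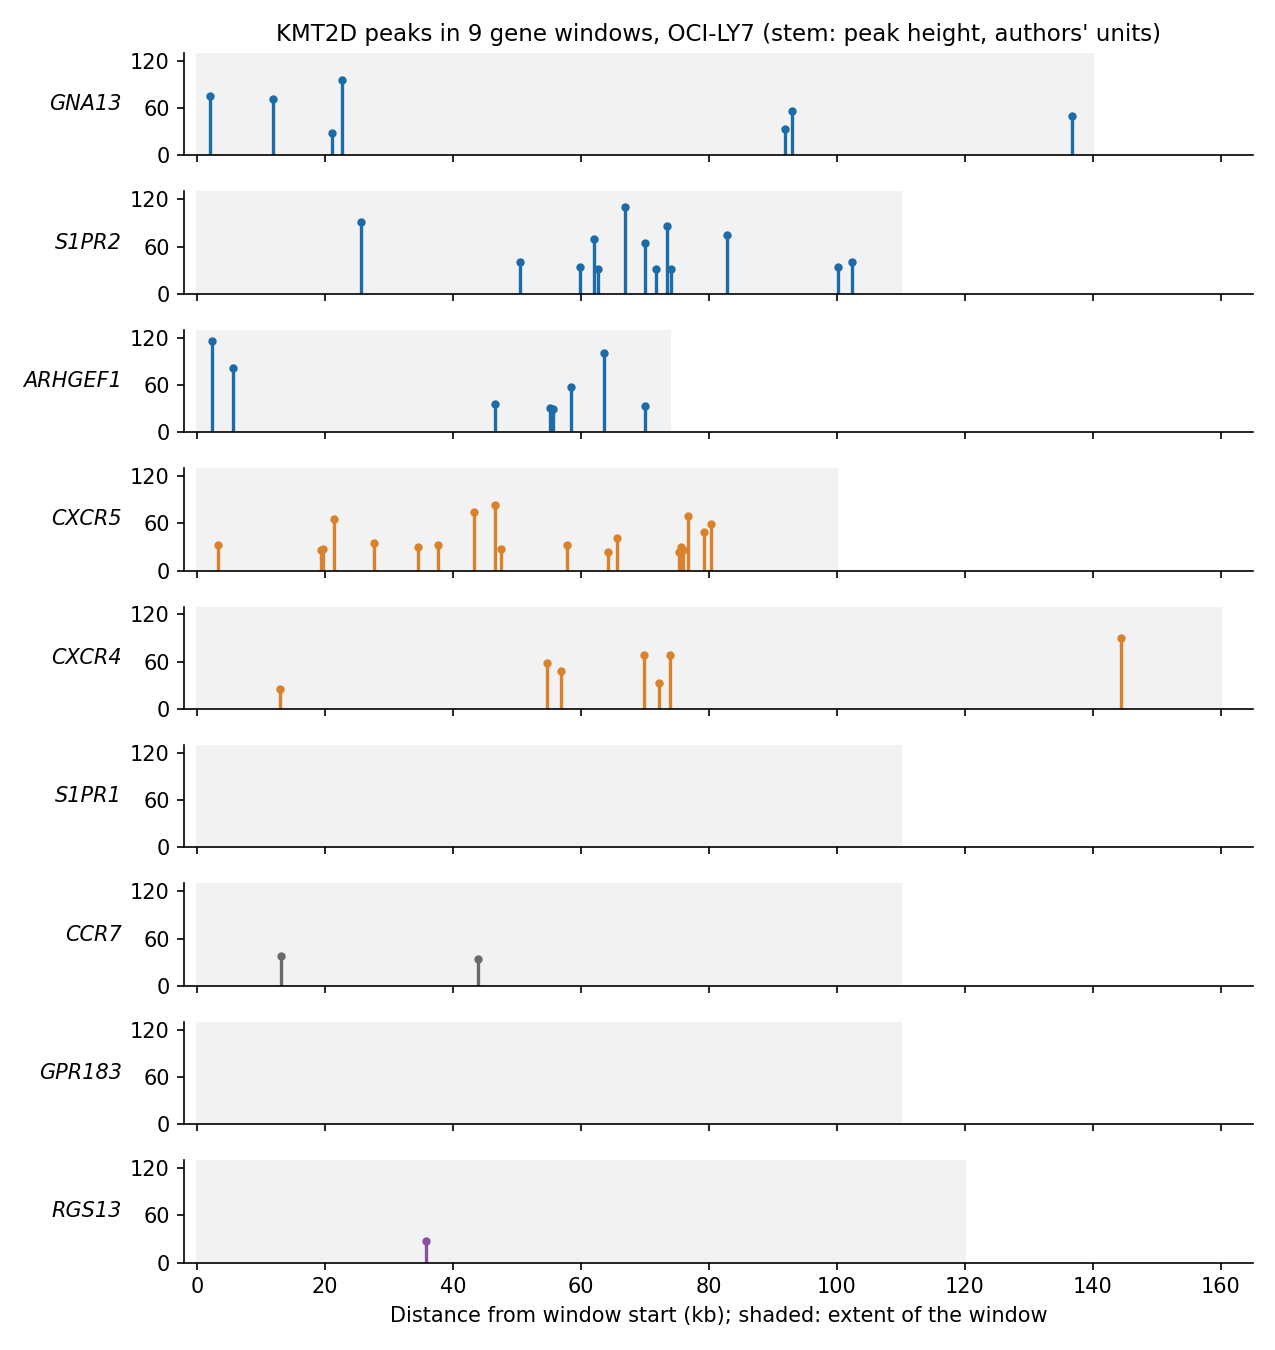
Each row is the window of 1 gene; the horizontal axis is the distance from the start of the window in kb, the shaded band shows the extent of the window, and each stem is a peak at its highest point with its height in the authors' units on the vertical axis. Stems crowd the S1PR2 and CXCR5 rows, with 13 and 19 peaks, and the S1PR1 and GPR183 rows hold 0.

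The promoters of these genes differ in base composition. Of the 9 genes, 8 had an entry in a RefSeq promoter table on GRCh38.p14, and all values here are for the 250 bases before the start site of the first entry listed; the entry of CXCR5 is for an inner start of the gene. No genome of build hg19 was used, so the peaks were not placed relative to these starts, and the coordinates that follow are on GRCh38.p14 and cannot be set against peak positions. The following 4 sequences were chosen to pair stretches with more and with fewer CpG than the median of 11 over all genes. They come from windows with many peaks (S1PR2 more, CXCR5 fewer) and from windows with 0 peaks (S1PR1 more, GPR183 fewer). They are written 5′ to 3′ along the gene with CpG dinucleotides in capitals, and lie at chr19:10231332-10231581 (minus strand), chr11:118893142-118893391 (plus), chr1:101236769-101237018 (plus) and chr13:99307400-99307649 (minus).
S1PR2: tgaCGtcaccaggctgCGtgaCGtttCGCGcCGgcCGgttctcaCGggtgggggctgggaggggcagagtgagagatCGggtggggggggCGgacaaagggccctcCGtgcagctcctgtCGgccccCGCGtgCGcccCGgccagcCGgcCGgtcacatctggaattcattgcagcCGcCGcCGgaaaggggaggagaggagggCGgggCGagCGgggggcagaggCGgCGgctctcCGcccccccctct
CXCR5: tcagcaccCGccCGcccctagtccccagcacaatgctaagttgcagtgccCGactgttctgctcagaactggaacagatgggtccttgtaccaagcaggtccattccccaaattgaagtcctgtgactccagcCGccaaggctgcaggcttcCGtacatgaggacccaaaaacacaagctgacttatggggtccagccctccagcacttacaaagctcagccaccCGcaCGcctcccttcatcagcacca
S1PR1: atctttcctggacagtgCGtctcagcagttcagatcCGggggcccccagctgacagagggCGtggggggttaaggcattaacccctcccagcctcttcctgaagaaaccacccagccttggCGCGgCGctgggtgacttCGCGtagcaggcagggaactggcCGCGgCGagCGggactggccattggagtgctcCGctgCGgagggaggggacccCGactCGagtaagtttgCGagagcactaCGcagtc
GPR183: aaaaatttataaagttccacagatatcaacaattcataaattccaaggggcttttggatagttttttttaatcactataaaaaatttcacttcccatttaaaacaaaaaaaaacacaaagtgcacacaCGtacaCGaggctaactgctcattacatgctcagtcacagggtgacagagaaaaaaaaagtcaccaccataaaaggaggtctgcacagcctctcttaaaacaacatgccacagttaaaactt

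The S1PR2 stretch held 27 CpG, more than 82.7% of the 27305 genes in the table, and that of CXCR5 held 7, more than 41.6%. The S1PR1 stretch held 18 CpG (more than 63.5% of genes) and that of GPR183 held 2 (more than 15.4%). The median over all genes in the table was 11. Among the other genes, GNA13 had 39 CpG in its first entry and 17 in another, ARHGEF1 37, 23 and 26, and CXCR4 24, 12 and 8, so the value depended on the start chosen. RGS13 had 1, and with GPR183 it combined the fewest CpG with 1 and 0 peaks. Over the first entries of these 8 genes the Spearman correlation of CpG number with peak number was 0.40, and 0.29 with peak density relative to the own chromosome. Both are descriptions: the windows differ in length and lie on chromosomes of different peak density, and they share a single library.

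**Figure D2:**
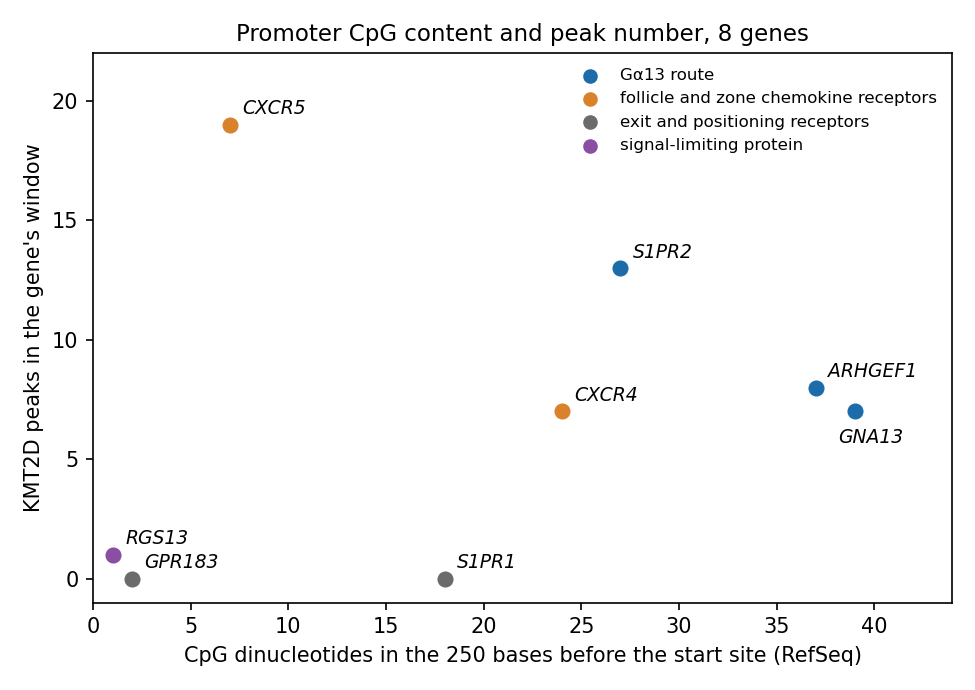
Each point is 1 of the 8 genes with a promoter entry, with the number of CpG dinucleotides in the 250 bases before the start site of its first entry on the horizontal axis and the number of KMT2D peaks in its window on the vertical axis. RGS13 and GPR183 stand at the lower left with 1 and 2 CpG, CXCR5 at 7 CpG and 19 peaks, and S1PR1 at 18 CpG and 0 peaks.

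S1PR2, the receptor at the head of the confinement route, had 13 peaks in its 110 kb window on chromosome 19 between 10280000 and 10390000. This was 118.2 peaks per Mb (62.9 to 202.1), against 26.7 on chromosome 19 as a whole, the chromosome with the highest density in the list. When chromosome 19 was divided into consecutive stretches of the same length, 1.12% of the 534 stretches held at least 13 peaks. The tallest peak of the window lay at 10346514 to 10347457, with a height of 110 and a deposited significance value, which looks like log10 of a p-value, of -76.5. It was the 89th tallest of the 1570 peaks on the chromosome and stood higher than 97.4% of all peaks in the list. The widest, at 10340998 to 10342389, spanned 1391 bp with a height of 70.

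Heights in the S1PR2 window fell into a low and a high set, with none between 41 and 64. In order along the chromosome they were 91, 41, 34, 70, 32, 110, 64, 31, 86, 31, 75, 34 and 40. Thus 6 peaks were at 64 or more and 7 at 41 or less, and the median of 41 lay below the chromosome's median of 51. High and low peaks were interleaved, with a median gap of 1.91 kb between neighbours. Of these peaks, 10 were joined by stitching across short gaps and formed a cluster of 32.6 kb at 10330444 to 10363050, which the peaks covered to 17.5%. Of the 4962 clusters in the list, 101, or 2.04%, had at least 10 peaks. The nearest protein-coding genes in the RefSeq order on GRCh38.p14 are DNMT1 on the lower side and MRPL4 and ICAM1 on the upper side, and which gene a peak serves cannot be told from the list.

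GNA13, which encodes the G protein subunit itself, had 7 peaks in a window of 140 kb on chromosome 17 between 62960000 and 63100000, or 50 per Mb (20.1 to 103.02). Chromosome 17 as a whole had 18.1 per Mb, and 12.3% of its 579 stretches of this length held at least 7 peaks, so a window this full was not rare there. The heights in order were 75, 71, 28, 96, 34, 57 and 50. The first 4 peaks, including the tallest at 62981849 to 62982845 (height 96, significance value -63.1), made up a cluster of 20.9 kb at 62961926 to 62982845. Of the 4962 clusters in the list, 24.5% had at least 4 peaks. A stretch of 69.0 kb without a listed peak followed, then a pair of peaks at 63051863 to 63053499 with heights of 34 and 57, and a lone peak of height 50 near the upper edge. The widest peak, at 62971134 to 62972477, measured 1343 bp. The window thus had a taller group on its lower side and a lower group beyond the gap. LRRC37A3 and SMURF2 lie next to GNA13 on the lower side, and RGS9, which encodes a regulator of G protein signalling, on the upper side.

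ARHGEF1, the exchange factor that Gα13 activates, had 8 peaks in the shortest window, 74 kb on chromosome 19 between 42386000 and 42460000, or 108.1 per Mb (46.7 to 213.02). Of the 795 stretches of this length on chromosome 19, 3.65% held at least 8. Heights in order were 116, 81, 36, 31, 29, 58, 100 and 33. The first of these, at 42386670 to 42388853, was the tallest and, with 2183 bp, the widest peak of the window, and it was the tallest of all 57. It stood higher than 97.99% of the whole list and had a significance value of -66.8.

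The peaks of the ARHGEF1 window lay toward its edges. With the window narrowed by 20 kb on both sides, 1 of the 8 was left. The first 2 belonged to a cluster of 8 peaks at 42363490 to 42392320 that began outside the window and reached a height of 140 there, and the last 6 to a cluster of 7 peaks at 42432104 to 42464029. Between these clusters, 39.8 kb held no listed peak. Clusters of at least 8 peaks made up 4.29% of those in the list, and clusters of at least 7 made up 6.25%. On the lower side the next gene is CD79A, which encodes a chain of the B-cell receptor complex, followed by RPS19. Whether the tall lower-edge peaks belong to ARHGEF1 or to such a neighbour cannot be told apart with these windows. The S1PR2 and ARHGEF1 windows share chromosome 19, and their densities had a ratio of 1.09 (exact conditional 95% interval 0.420 to 3.04).

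CXCR5, the receptor that brings B cells into follicles, had the most peaks of the 9 windows. Its 100 kb on chromosome 11 between 118720000 and 118820000 held 19, or 190 per Mb (114.4 to 296.7), which was 19.7 times the density of chromosome 11. Only 3 of the 1341 stretches of this length on the chromosome, or 0.224%, held at least 19. The peaks covered 12.8% of the window, against 0.692% of the chromosome.

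Peaks at CXCR5 were many rather than tall. Their heights ran from 23 to 83 with a median of 33, below the chromosome's median of 40. The tallest, at 118765886 to 118766952, had a height of 83 and a significance value of -62.8, and next to it a peak at 118762896 to 118763895 reached 74. Near the upper end, heights in order were 23, 30, 26, 69, 49 and 59 over the last 6 peaks of the cluster. Those of 69, 49 and 59 exceeded the chromosome's median of 40, and those of 23, 30 and 26 did not. The widest peak, at 118784624 to 118786070, was 1446 bp wide with a height of only 41. Of the 19 peaks, 4 were no wider than 200 bp, and 21.0% of all listed peaks were as narrow. Of the 19, 18 belonged to 1 cluster of 62.1 kb at 118739290 to 118801349, and 9 clusters of the whole list had more peaks. After peaks under 500 bp apart were merged, 12 remained. Without merging, 6 of the 19 were among the highest-scoring 50% of the list. In RefSeq order DDX6 precedes CXCR5 and BCL9L follows it.

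CXCR4, the dark-zone receptor, had fewer but wider peaks. Its window of 160 kb on chromosome 2 between 136820000 and 136980000 held 7, or 43.8 per Mb (17.6 to 90.1), which was 6.19 times the density of the chromosome. Of the 1518 stretches of this length on chromosome 2, 3.56% held at least 7. Heights in order were 25, 58, 48, 68, 33, 69 and 90, and 5 of these exceeded the chromosome's median of 36. The tallest was a lone peak at 136963998 to 136965442, with a height of 90 and a significance value of -62.3, separated from the rest by 69.2 kb.

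Of these, 5 peaks in the middle of the CXCR4 window formed a cluster at 136873767 to 136894757. They covered 36.6% of its 21.0 kb, and 15.4% of the clusters in the list had at least 5 peaks. The cluster held the widest peak of all 9 windows, 2558 bp at 136873767 to 136876325, and a peak of 2260 bp at 136889019 to 136891279. The median width in the window was 1444 bp, against 568 bp at CXCR5 and 609 bp in the whole list.

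**Figure D3:**
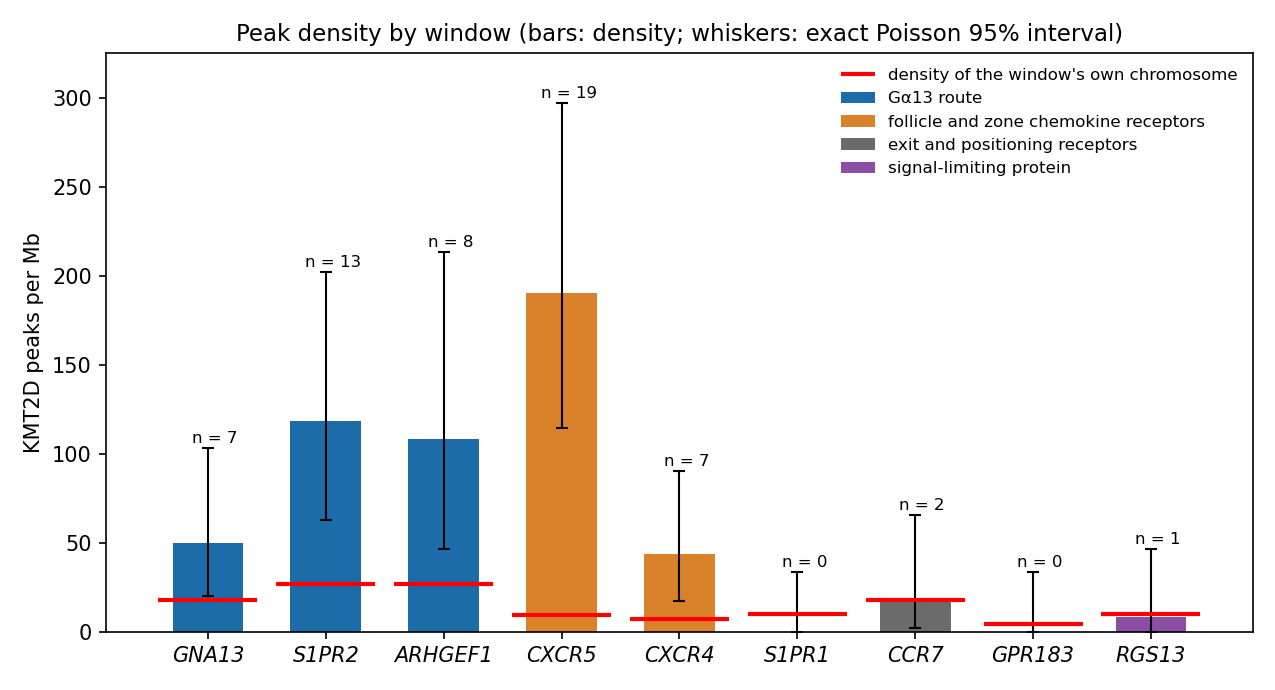
Bars give KMT2D peaks per Mb in each window, whiskers the exact Poisson 95% interval, red lines the density of the whole chromosome the window lies on, and n the number of peaks. The intervals of the first 5 windows start above the chromosome's density, and those of S1PR1, CCR7, GPR183 and RGS13 include it.

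S1PR1, which carries lymphocytes out of the tissue and opposes S1PR2 in function, had 0 listed peaks in 110 kb on chromosome 1 between 101650000 and 101760000. The exact Poisson 95% interval for 0 peaks in this length reaches 33.5 per Mb, and the limit of 3 counts commonly set for a count of 0 comes to 27.3 per Mb. Chromosome 1 had 9.95 per Mb, at which 1.09 peaks would fall in the window, so a lower density than that of the chromosome was not detectable from this window. At least 1 peak was found in 38.8% of the 2258 stretches of this length. The empty stretch was longer than the window: it ran for 381 kb from a peak that ended at 101491831, with a height of 51, to a peak that started at 101873175, with a height of 38. Of the 2470 intervals between neighbouring peaks on chromosome 1, 4.70% were at least as long, and such intervals made up 55.4% of the span of the chromosome. Widening the window by 50 kb on both sides still gave 0.

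GPR183, the oxysterol receptor that takes B cells to the outer follicle, also had 0 peaks in 110 kb, on chromosome 13 between 99900000 and 100010000. With the same length, the exact Poisson interval again reaches 33.5 per Mb, and the limit of 3 counts 27.3 per Mb. Chromosome 13 is sparse, with 4.71 per Mb, and 24.5% of its 862 stretches of this length held a peak. Peaks stood closer here than at S1PR1: the empty stretch was 191 kb, from 99881526 to 100072469, and widening the window by 50 kb on both sides brought in 3 peaks. The flanking peaks had heights of 32 and 42. UBAC2 and GPR18 are neighbours on the lower side and TM9SF2 on the upper side.

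CCR7, the receptor for T-zone chemokines, had 2 peaks in 110 kb on chromosome 17 between 38660000 and 38770000. They lay at 38672991 to 38673342, with a height of 38 and a width of 351 bp, and at 38703652 to 38703989, with a height of 34 and a width of 337 bp. Both were lone peaks below the chromosome's median height of 46, with significance values of -22.5 and -18.0, and neither was among the highest-scoring 50% of the list. The density of 18.2 per Mb (2.20 to 65.7) was 1.004 times that of chromosome 17, and 40.2% of 737 stretches held at least 2 peaks. GNA13 lies on the same chromosome, where the lowest listed height is the same for both. Its density was 2.75 times that of CCR7, with an interval of 0.524 to 27.1 that includes equal densities.

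RGS13 had 1 peak in 120 kb on chromosome 1 between 192560000 and 192680000. It lay at 192595753 to 192596133, was 380 bp wide and had a height of 27 and a significance value of -19.5, which put it above 22.5% of the peaks of chromosome 1. With 41.2% of 2070 stretches holding at least 1 peak, the count was ordinary for the chromosome, at 8.33 per Mb (0.211 to 46.4). Its surroundings were not: the preceding peak ended 5.55 Mb away, at 187042096, and only 2 of the 2470 intervals between neighbouring peaks on chromosome 1 were longer. Intervals at least as long made up 13.6% of the span of the chromosome. On the other side the next peak, of height 45, began at 192777642. The low RGS13 peak was therefore the first listed one after that long empty interval. Genes of the same family, RGS1, RGS21 and RGS18, lie on its lower side and RGS2 on its upper side.

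**Figure D4:**
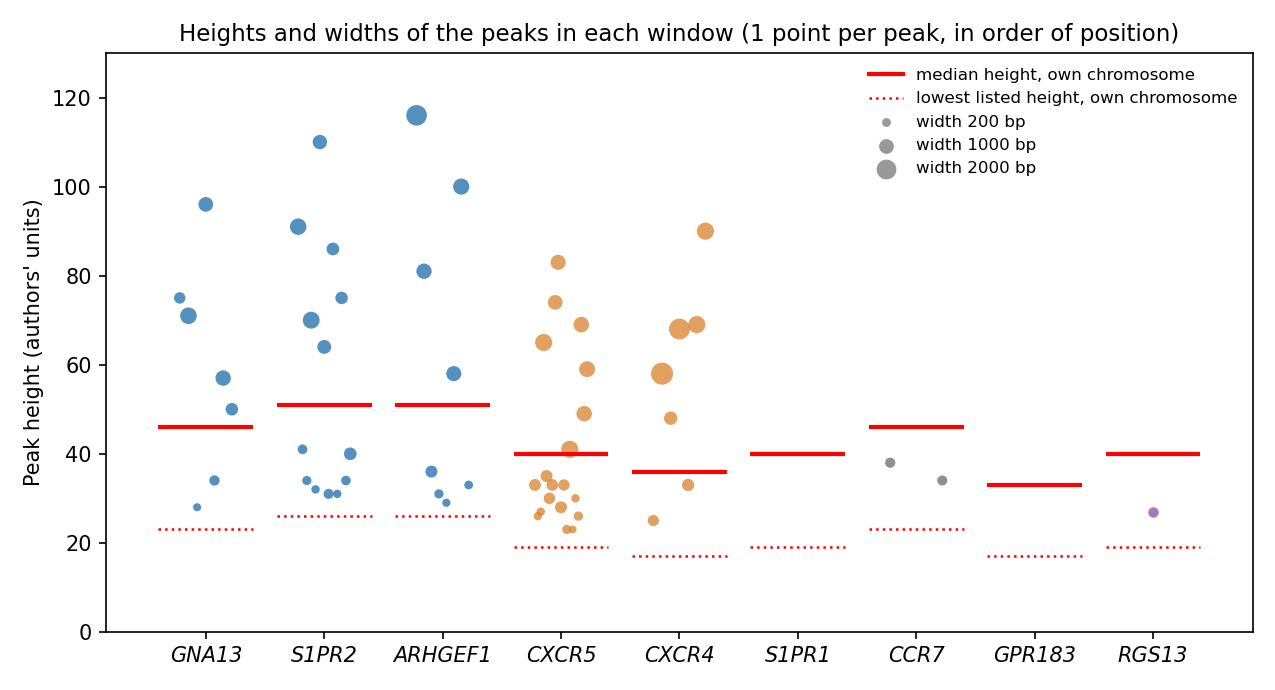
Each point is a peak, in order of position within its window, with its height in the authors' units on the vertical axis and its area growing with width; solid red lines mark the median and dotted red lines the lowest listed height of the chromosome. The peaks of CCR7 and RGS13 lie between both lines, and the 5 other windows with peaks each reach above 80.

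Over all 9 windows, the 57 peaks made up 0.230% of the list in 0.0352% of the spans examined. They amounted to 55.1 per Mb (41.8 to 71.4), or 3.97 times the number at the densities of their own chromosomes. Without the CXCR5 window, a choice made after seeing the data, the density was 40.7 per Mb (28.8 to 55.8) and that ratio 2.84. The chromosome densities are means over the whole span, where many stretches hold no peak. Of stretches as long as the window, 27.7% were empty for S1PR2 on chromosome 19 and 75.5% for GPR183 on chromosome 13. Windows around other genes were not counted, so whether the excess is particular to these genes was not tested. Heights were close to those of the list: the median was 40 (order-statistic 95% interval 33 to 58), against 39, and 19 of 57 peaks, or 33.3% (exact binomial 21.4 to 47.1%), exceeded 59, the upper quartile of the list, against 24.8% of all peaks. Against the upper quartile of each peak's own chromosome, the share was 17 of 57, or 29.8% (18.4 to 43.4%), against 24.4%. Both intervals include the share of the list. In clusters were 49 of 57, or 86.0% (74.2 to 93.7%), against 63.4% of all peaks. By chromosome, this share was 70.4% on 19, 69.1% on 17, 67.3% on 11, 61.6% on 1 and 59.3% on 2. A dense window makes clusters by its density, so density and the share in clusters are not independent.

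By role, the share of tall peaks did not leave the share of the list beyond counting error. Above the upper quartile of the list, which 24.8% of all peaks exceeded, were 12 of 28 peaks at the Gα13 route (42.9%, 24.5 to 62.8%), 7 of 26 at CXCR5 and CXCR4 (26.9%, 11.6 to 47.8%) and 0 of the 3 at CCR7 and RGS13. Chromosomes 17 and 19 had taller peaks in general, with medians of 46 and 51 and lowest listed heights of 23 and 26. Relative to the upper quartile of the own chromosome, which 24.4% of all peaks exceeded, the counts were 10 of 28 (35.7%, 18.6 to 55.9%) and 7 of 26. Peaks over 2000 bp numbered 3 of 57 (5.26%), against 2.22% of the list, and lay at CXCR4 and ARHGEF1. Peaks of up to 200 bp numbered 9 (15.8%), against 21.0%.

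The window edges decided some of these counts. Within 5 kb of an edge, 5 peaks lay inside and 2 outside, measured to the highest point. Those inside were the ARHGEF1 peaks of heights 116 and 33 (2.30 kb from the lower and 3.95 kb from the upper edge), the GNA13 peaks of heights 75 and 50 (2.05 and 3.23 kb) and the CXCR5 peak of height 33 (3.26 kb). Both outside peaks flanked ARHGEF1, with a height of 113 at 4.70 kb below the lower edge and of 96 at 3.47 kb above the upper edge.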

How the data were processed

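The authors deposited 1 list of peaks with 11 columns and no header, and no separate values of the input library were analysed here. The submitters' processing notes name CASAVA 1.8.2 and build hg19. Which aligner and caller made the peaks, at which threshold, and how the input entered is not given in the sources used here. Whether positions count from 0 or 1 is not stated, and they are printed as deposited. Column meanings were read from the values: start, end, highest point, midpoint, width, a signal column deposited as whole numbers and called height, a score of unstated scale, the position of the highest point in percent of the width as deposited, and a significance value from -199.991 to -15.0002, with 30 peaks at minus infinity. Normalization and depth are unknown.

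Peaks were assigned to windows by their highest point. Chromosome density is peaks over the span from first to last peak, which includes unassembled sequence; stretches are consecutive divisions of that span. Stitching joined peaks up to 12.5 kb apart. The windows, the gene groups by role and the alternatives were chosen with earlier results of these data known. Items named are the 9 genes, and per window the tallest and widest peak, the cluster with the most peaks and, in windows of at most 5 peaks, every peak; other peaks and all neighbouring genes were chosen after values were seen. Other genes of the route were planned but not analysed here, as no hg19 annotation was used. All 9 symbols matched the RefSeq gene table, used for names and order only. The neighbours of CXCR4 are not reported here. No test was made, since there was 1 library. Window counting and stitching were tested on simulated data. Software was Python 3.11.15 with scipy 1.17.1, pandas 2.3.3, matplotlib 3.10.9 and numpy 2.4.6.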

Additional observations from a re-analysis of the deposited data

How the results depend on the processing

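A share, density or median was taken as moved outside its 95% interval, and a count beyond 1.5 times its value. This held for 21 of 98 values recomputed, and the other 77 stayed. Some of the 77 could not move, so their number overstates how much was put to the test. Leaving out the CXCR5 window cannot change the counts of the other windows. Counts of 0 cannot change when peaks are filtered or merged, or when windows are narrowed. Keeping the highest-scoring 50% of peaks left 29 peaks, 28.0 per Mb and a median height of 69. The counts were then 8 at S1PR2, 5 at ARHGEF1, 6 at CXCR5, 0 at CCR7 and 0 at RGS13. Fewer and taller peaks follow from this choice, and the whole list then had 4.23 per Mb and a median of 59. Above the upper quartile of the list were 65.5% of these window peaks (45.7 to 82.1%). The share of the whole list under this choice was 49.7%, within that interval. Merging peaks under 500 bp apart left 12 at CXCR5. Narrowing the windows by 20 kb on both sides left 4 at GNA13, 1 at ARHGEF1 and 1 at CCR7. Widening by 50 kb gave 87 in all, with 11 at GNA13, 17 at ARHGEF1, 14 at CXCR4, 4 at CCR7 and 3 at GPR183. At a stitching distance of 5 kb, 71.9% of the window peaks were clustered. The share of all listed peaks clustered at 5 kb is not reported here. The 63.4% of all peaks is for the stitching distance of the main results and cannot be set against this share. Leaving out the CXCR5 window, chosen after seeing the data, gave 40.7 per Mb. A minimum height of 26 and membership by an overlap of 1 bp moved none of the values computed for them. No paired analysis was possible because each group has 1 library. With depth unknown, 0 listed peaks does not show absence of KMT2D.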
